A study of Mus musculus with 6 samples.

Results

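Hmgcs1, Sqle, Idi1, Insig1, Fdft1, Lss and Dhcr7 were taken from the deposited count table of Fmr1-KO and WT cortical neurons as the rows bearing those gene names, 7 of 55367 rows in all. All 7 had enough counts to be tested, among 16976 genes tested. They were grouped as genes of cholesterol synthesis and uptake. By their known roles, 6 are synthesis enzymes and Insig1 is a regulator of the pathway, and none is itself an uptake gene, so genes of uptake are described from a separate list. Cells from the cerebral cortex of C57BL/6J pups at postnatal day 1 (P1), either WT or Fmr1-KO, were dissociated with papain and kept for 2 days in vitro in Neurobasal/B27 Plus medium. Per the study's methods, astrocytes carrying ACSA2 and myelin were depleted from both genotypes. Fmr1-KO mice model fragile X syndrome, in which the RNA-binding protein FMRP is lost. Polyadenylated RNA was sequenced from 3 WT and 3 Fmr1-KO libraries, and Fmr1-KO was compared with WT. The labels name no separate animals or cultures, so P values measure the spread between these libraries, which the study describes as independently derived.

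Cells make cholesterol from acetyl-CoA. The mevalonate arm builds isoprenoid units, these are joined to squalene, squalene is closed to lanosterol, and lanosterol is trimmed and reduced to cholesterol. When sterols are plentiful, INSIG proteins hold SCAP and the transcription factor SREBP2 in the endoplasmic reticulum. When sterols are scarce, SREBP2 is released, cleaved and binds sterol regulatory elements in the promoters of synthesis and uptake genes. The brain makes its own cholesterol because lipoproteins of the blood do not cross the blood-brain barrier, and in the mature brain glia are a main source.

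All 7 genes are protein-coding and lie, in GRCm38 with GENCODE M21 annotation, on 6 chromosomes. Hmgcs1 is at chr13:119690379-119708260 and Idi1 at chr13:8885501-8892451. Insig1 is at chr5:28071363-28078662, Dhcr7 at chr7:143823145-143848410, Lss at chr10:76531588-76557138 and Sqle at chr15:59315077-59331192, all on the plus strand like the first pair. Fdft1, at chr14:63145150-63179578, is on the minus strand. The promoters are shown because SREBP2 acts there, so that the letters can be read beside the expression values. RefSeq start windows of GRCm38.p6, which run from 250 bases before to 50 bases after a transcription start, were found for 5 of the 7 genes and were not found for Sqle and Fdft1. The bases before the start are printed 5′ to 3′ on the plus strand, up to the first annotated transcribed base. The capitals mark 2 motifs searched on both strands, the sterol regulatory element TCACNCCAC and the CCAAT box CCAAT, which reads ATTGG on the opposite strand. Hmgcs1 (chr13:119690101-119690350), the member with the most reads, is shown first, and Insig1 (chr5:28071162-28071362), Lss (chr10:76531355-76531587) and the most upstream window of Dhcr7 (chr7:143822917-143823144) follow as a regulator and enzymes of later steps.
Hmgcs1: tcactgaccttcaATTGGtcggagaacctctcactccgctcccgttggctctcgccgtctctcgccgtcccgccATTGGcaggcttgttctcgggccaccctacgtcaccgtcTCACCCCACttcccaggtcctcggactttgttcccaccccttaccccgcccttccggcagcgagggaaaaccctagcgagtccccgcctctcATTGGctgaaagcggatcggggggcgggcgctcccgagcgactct
Insig1: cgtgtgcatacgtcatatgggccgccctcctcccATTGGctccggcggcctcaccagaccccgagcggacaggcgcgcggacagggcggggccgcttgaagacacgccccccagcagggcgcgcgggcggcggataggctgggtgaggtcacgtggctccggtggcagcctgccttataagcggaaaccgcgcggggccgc
Lss: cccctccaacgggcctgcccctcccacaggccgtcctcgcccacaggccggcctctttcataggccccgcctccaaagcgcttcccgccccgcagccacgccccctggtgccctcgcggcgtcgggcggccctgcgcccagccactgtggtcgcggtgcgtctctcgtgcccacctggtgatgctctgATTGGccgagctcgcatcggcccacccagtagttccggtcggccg
Dhcr7: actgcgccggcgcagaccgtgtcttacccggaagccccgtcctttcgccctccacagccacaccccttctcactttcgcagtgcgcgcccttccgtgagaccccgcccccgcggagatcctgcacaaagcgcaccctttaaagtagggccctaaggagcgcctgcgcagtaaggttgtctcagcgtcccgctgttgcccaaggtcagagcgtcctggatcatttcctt
The sterol regulatory element letters occurred in 1 of the 5 members with a window, Hmgcs1, as TCACCCCAC from position -137 to -129, counting the first transcribed base of the window as 0. They were present in 408 of all 32851 windows, or 1.24%, and in a window of 1.44% of all genes. CCAAT letters occurred 4 times in the Hmgcs1 window, 1 of them past the printed bases, and at least 1 time in a window of each of the 5 genes, against 41.1% of all genes. By window, 37.4% of all held them. The Dhcr7 window shown held neither motif, and its 2 CCAAT matches lay in another window at chr7:143829964-143830263. These are matches of letters, not measured binding sites.

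The libraries held between 30348556 and 35126207 counts. Fmr1, the targeted gene, had 4113, 3710 and 3656 counts in WT replicates 1, 2 and 3 and 1761, 1879 and 1972 counts in Fmr1-KO replicates 1, 2 and 3, so every Fmr1-KO library lay below every WT library. It changed by a log2 fold-change of -0.98 with SE 0.04 (edgeR adjusted P 2.25e-13). Across all genes, 3725 were called lower and 3506 higher in Fmr1-KO at an adjusted P under 0.05. Levels are given below as CPM, read counts scaled to library size with TMM factors, and every adjusted P comes from the quasi-likelihood test of edgeR with Benjamini-Hochberg adjustment over all 16976 genes.

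Of the 7 genes, 3 were called lower in Fmr1-KO, where 21.9% of all genes were, and 0 were called higher, where 20.7% of all genes were. Those lower were Hmgcs1, Sqle and Dhcr7, and the changes were small, with log2 fold-changes from -0.19 to -0.11. For Dhcr7 alone did all 3 Fmr1-KO libraries lie below all 3 WT libraries, which was so for 26.3% of all genes, and for none of the 7 did they all lie above, which was so for 25.4% of all genes. The median log2 fold-change of the 7 genes was -0.03, beside 0.01 for all genes tested. With library totals in place of TMM scaling it was 0.000275, beside 0.0338 for all genes tested. Among the 9922 genes whose mean lay within the members' range of 13.8 to 1203 CPM, 26.5% were called lower and 24.5% higher. The call for Hmgcs1 and for Sqle was lost without WT replicate 2 and also without Fmr1-KO replicate 3, leaving 1 gene called, Dhcr7, in each case. DESeq2 did not call Hmgcs1 either (adjusted P 0.237).

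**Figure D1:**
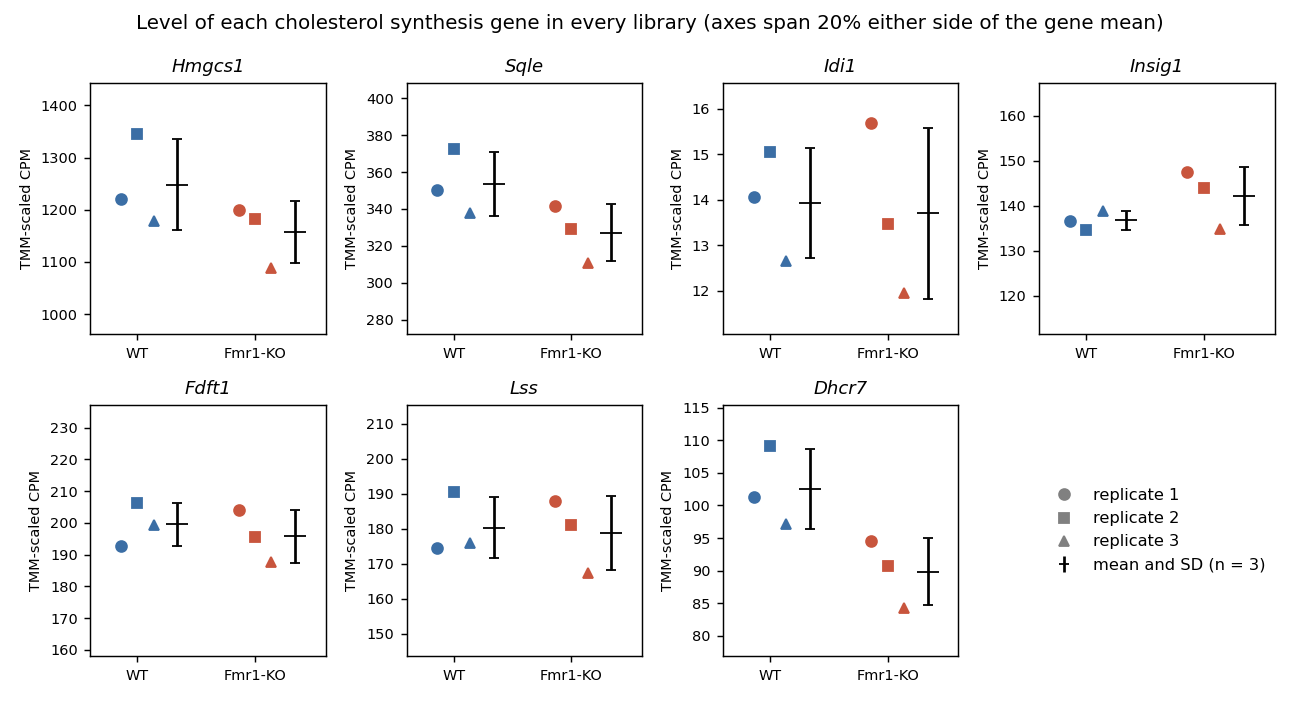
TMM-scaled CPM of the 7 genes in each library, one panel per gene, with WT and Fmr1-KO on the horizontal axis, symbols for replicate numbers, and the mean with its SD (n = 3) beside them. Vertical axes do not start at 0 and span 20% either side of each gene's mean. The 3 Fmr1-KO points of Dhcr7 lie between 84.3 and 94.5 CPM, below all WT points, and the genotypes overlap in the other panels.

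Hmgcs1 encodes cytosolic HMG-CoA synthase, an early enzyme of the mevalonate arm. It had 1220, 1346 and 1179 CPM in WT replicates 1, 2 and 3 and 1199.7, 1183 and 1089 CPM in Fmr1-KO replicates 1, 2 and 3. WT replicate 2 stood highest and Fmr1-KO replicate 3 lowest, and Fmr1-KO replicates 1 and 2 lay above WT replicate 3. WT libraries averaged 1248 ± 87.0 CPM against 1157 ± 59.6 CPM for Fmr1-KO (SD, n = 3 each). The difference was a log2 fold-change of -0.11 with SE 0.04 (edgeR adjusted P 0.0377). The mean CPM fell by 7.31% (95% interval of the fitted change, -12.7% to -1.61%). That interval passes close to 0, and without WT replicate 2 the log2 fold-change was -0.05 (adjusted P 0.286), while without Fmr1-KO replicate 3 it was -0.07 (adjusted P 0.203).

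Idi1 encodes isopentenyl-diphosphate isomerase, which interconverts the isoprenoid building blocks. It was the lowest of the 7, with 14.1, 15.1 and 12.6 CPM in WT replicates 1, 2 and 3 and 15.7, 13.5 and 11.96 CPM in Fmr1-KO replicates 1, 2 and 3. The highest and the lowest values were both from Fmr1-KO, and the genotypes overlapped fully. The comparison gave a log2 fold-change of -0.03 with SE 0.09 (edgeR adjusted P 0.845), with a 95% interval of the change from -13.5% to 11.6%, the widest of the 7. Of its longest transcript, 22.6% is identical to 2 other genes, Gm13502 and Gm35570, so its counts are uncertain, because the counting may not assign reads from that stretch.

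Fdft1 encodes squalene synthase, which commits the pathway to sterols. It had 192.9, 206.4 and 199.5 CPM in WT replicates 1, 2 and 3 and 204.2, 195.5 and 187.7 CPM in Fmr1-KO replicates 1, 2 and 3. The genotypes overlapped. This was a log2 fold-change of -0.03 with SE 0.04 (edgeR adjusted P 0.567), with a 95% interval of the change from -6.76% to 3.22%. A stretch covering 33.8% of its longest transcript is at least 95% identical to Gm6781.

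Sqle encodes squalene epoxidase, the oxygen-dependent step after squalene synthase. It had 350.1, 372.4 and 337.8 CPM in WT replicates 1, 2 and 3 and 341.7, 329.1 and 310.7 CPM in Fmr1-KO replicates 1, 2 and 3. Only Fmr1-KO replicate 1 reached into the WT range, where it lay above WT replicate 3. WT libraries averaged 353.4 ± 17.6 CPM against 327.2 ± 15.6 CPM for Fmr1-KO (SD, n = 3 each). The difference was a log2 fold-change of -0.11 with SE 0.04 (edgeR adjusted P 0.0206). The mean CPM fell by 7.44% (95% interval of the fitted change, -12.3% to -2.29%). Leaving out WT replicate 2 gave -0.07 (adjusted P 0.129) and leaving out Fmr1-KO replicate 3 gave -0.08 (adjusted P 0.130).

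Lss encodes lanosterol synthase, which closes the sterol rings. It had 174.6, 190.4 and 175.9 CPM in WT replicates 1, 2 and 3 and 187.9, 181.1 and 167.4 CPM in Fmr1-KO replicates 1, 2 and 3. Fmr1-KO replicates 1 and 2 lay inside the WT range. The comparison gave a log2 fold-change of -0.01 with SE 0.04 (edgeR adjusted P 0.837), with a 95% interval of the change from -6.50% to 5.15%.

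Dhcr7 encodes 7-dehydrocholesterol reductase, which carries out the last reduction in one branch of the pathway and whose loss causes Smith-Lemli-Opitz syndrome in people. It had 101.2, 109.2 and 97.1 CPM in WT replicates 1, 2 and 3 and 94.5, 90.7 and 84.3 CPM in Fmr1-KO replicates 1, 2 and 3. The genotypes did not overlap, although the highest Fmr1-KO value and the lowest WT value were close. WT libraries averaged 102.5 ± 6.12 CPM against 89.8 ± 5.14 CPM for Fmr1-KO (SD, n = 3 each). This was a log2 fold-change of -0.19 with SE 0.04 (edgeR adjusted P 0.00153). The mean CPM fell by 12.3% (95% interval of the fitted change, -17.9% to -6.54%). Leaving out any 1 library kept the call, with log2 fold-changes from -0.23 to -0.14.

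Insig1 encodes the endoplasmic reticulum protein that retains SCAP and SREBP2, and is itself an SREBP target. It had 136.6, 134.7 and 138.9 CPM in WT replicates 1, 2 and 3 and 147.5, 143.9 and 134.9 CPM in Fmr1-KO replicates 1, 2 and 3. Fmr1-KO replicates 1 and 2 lay above every WT library and Fmr1-KO replicate 3 lay among them. The difference was a log2 fold-change of 0.06 with SE 0.04 (edgeR adjusted P 0.220), with a 95% interval of the change from -1.24% to 9.33%. Insig1 alone had a fold-change above 0, although with library totals in place of TMM scaling those of Idi1, Fdft1 and Lss were also just above 0.

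**Figure D2:**
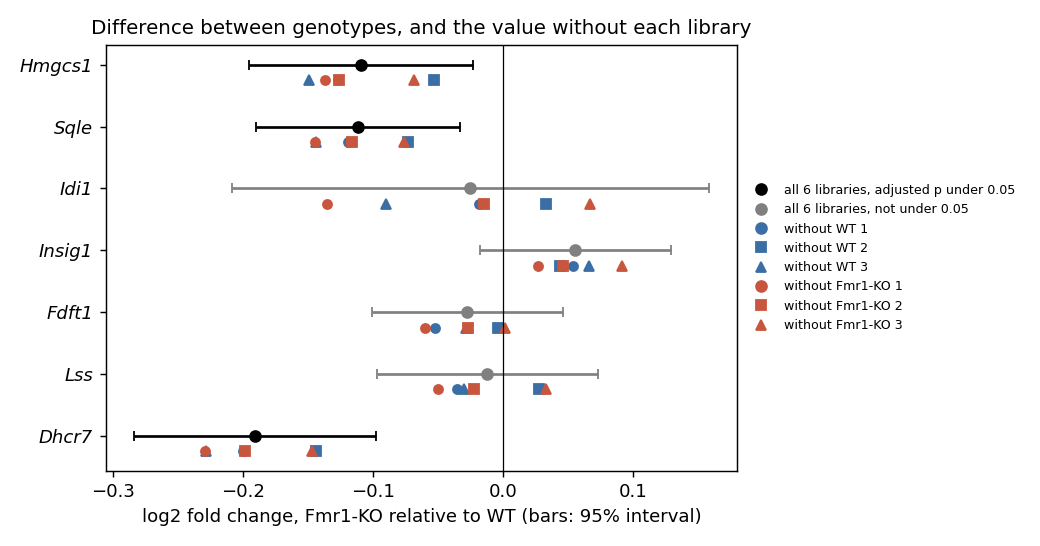
Log2 fold-change of Fmr1-KO relative to WT for the 7 genes: points with bars are edgeR estimates with 95% intervals (black where called, grey where not), and the symbols beneath them are the estimates without each of the 6 libraries. The intervals of Hmgcs1, Sqle and Dhcr7 lie below 0, and those of Idi1, Insig1, Fdft1 and Lss include it. The Hmgcs1 estimate without WT replicate 2 is the nearest to 0 of its set, at -0.05.

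Per length, as RPKM over merged exons, the WT order was Hmgcs1 (272), Sqle (63.7), Fdft1 (47.2), Insig1 (44.2), Dhcr7 (17.6), Lss (16.7) and Idi1 (3.97). Hmgcs1, Sqle and Idi1 stood apart from their neighbours in every library. In WT the RPKM of Fdft1 ran from 45.6 to 48.8 and that of Insig1 from 43.5 to 44.9, so that pair did not overlap, whereas in Fmr1-KO it did. Dhcr7 and Lss overlapped in WT, and in Fmr1-KO, where they overlapped too, Lss had the higher mean RPKM (16.6, against 15.4 for Dhcr7). Merged exons were longer than the longest transcript, at 10787 against 4667 bases for Lss and 5817 against 2815 bases for Dhcr7. The order of close pairs can depend on which length is used.

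The members also shared a pattern between replicates of a genotype, which was noticed after their values were seen. WT replicate 2 was the highest WT library for 6 of the 7 genes, all but Insig1, against 34.8% of all genes tested. Fmr1-KO replicate 1 was the highest and Fmr1-KO replicate 3 the lowest Fmr1-KO library for 7 of 7, against 32.3% and 31.5% of all genes. All 3 conditions held together for 6 of 7 members and for 5.23% of all genes. Among the other 16 synthesis enzymes listed, they held for 11. They held for 0 of 11 genes of sterol sensing, 3 of 12 of uptake and endosomal export, 2 of 9 of efflux, storage and turnover, and 1 of 11 of SREBP-linked fatty acid synthesis. Among cell type lists, they held for 3 of 10 oligodendrocyte lineage markers, 1 of 10 astrocyte markers, 1 of 8 microglia markers, 1 of 8 neural progenitor markers, and 0 of the neuron, proliferating cell, and endothelial and mural markers. No difference between these lists was tested.

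**Figure D3:**
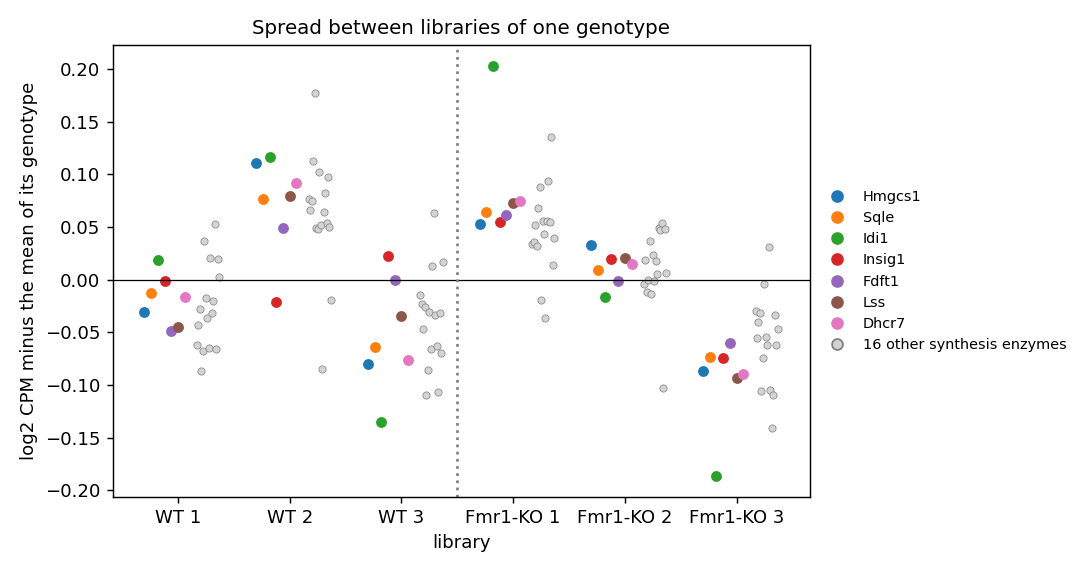
Difference of each library from its own genotype's mean, in log2 CPM, for the 7 genes (coloured points) and 16 other synthesis enzymes (grey points) across the 6 libraries on the horizontal axis. WT replicate 2 lies above its genotype's mean for 6 of the 7 genes, all but Insig1, and Fmr1-KO replicate 3 lies below its genotype's mean for all 7.

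The within-genotype SD of log2 CPM was 0.09 for Hmgcs1, 0.07 for Sqle, 0.16 for Idi1, 0.08 for Lss and 0.08 for Dhcr7. Each was larger than that of at least 95% of genes of similar level, defined as within 0.5 log2 units in mean CPM. There were 46 such genes for Hmgcs1 and 525 to 2280 for Sqle, Idi1, Lss and Dhcr7. The SD of Insig1 was 0.05 and exceeded that of 72.9% of such genes, and the SD of Fdft1 was 0.06 and exceeded that of 85.8%. Among all 9922 genes in the members' CPM range, the share with a smaller SD was 88.7% for Hmgcs1, 76.8% for Sqle and 99.3% for Idi1. It was 82.6% for Lss, 86.9% for Dhcr7, 51.6% for Insig1 and 60.3% for Fdft1. The summed level of the 7 genes was 2190, 2374 and 2141 CPM in WT replicates 1, 2 and 3 and 2191, 2136 and 1986 CPM in Fmr1-KO replicates 1, 2 and 3, so the genotypes overlapped on the sum.

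The 5 genes outside all lists whose log2 CPM followed the members' mean most closely over the 6 libraries were Rrm2b (Pearson's r 0.991), Tfpt (0.979), Cybc1 (0.974), Zfp36l1 (0.972) and Cat (0.965). They were the highest of 10645 candidates (10 CPM or more on average), and the 6 points share their libraries with the members. None of the 5 was called, with log2 fold-changes between -0.06 and -0.03. As they were picked to follow the members' mean, these small changes are not a separate result.

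The rest of the pathway was read from lists of genes by step, which include the members. Of the 22 synthesis enzymes, 10 were called lower (45.5%, where 21.9% of all genes were) and 1 was called higher. The number lower was 6 (27.3%) without WT replicate 2, without Fmr1-KO replicate 3 and with library totals in place of TMM scaling, and 0 for a fold change above 1.2. Of all genes, 3569 of 17248, 3394 of 17217, 3212 of 16976 and 1340 of 16976 were called lower in these settings, in that order. In the reported analysis the median log2 fold-change of the enzymes was -0.07. Of them, 19 of 22 lay below 0 and 0 changed by 0.5 or more in either direction. The 16 enzymes other than the members gave 7 lower (43.8%) and 1 higher. Those named next in the synthesis steps, apart from Cyp51 and Msmo1, were chosen after their values were seen.

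In the mevalonate arm, 4 of 9 genes were called lower (all genes, 21.9%) and 0 higher (all genes, 20.7%). The median log2 fold-change was -0.06. The number lower was 2 with DESeq2, with library totals alone, without WT replicate 2 and without Fmr1-KO replicate 3, and the median was -0.14 when Fmr1-KO replicate 1 was left out and -0.04 with library totals. Mvd, the decarboxylase that makes isopentenyl diphosphate, had 59.9 ± 6.62 CPM in WT against 51.1 ± 3.23 CPM in Fmr1-KO (SD, n = 3 each), with a log2 fold-change of -0.23 (SE 0.06, adjusted P 0.00367 by edgeR), which became -0.14 without WT replicate 2. Mvk, mevalonate kinase, was also called lower, with a log2 fold-change of -0.12 (SE 0.04, adjusted P 0.0313), a call lost without WT replicate 2, Fmr1-KO replicate 2 or Fmr1-KO replicate 3, with DESeq2 and with library totals. Fdps, which makes farnesyl diphosphate, was at -0.06 on the log2 scale (adjusted P 0.469), and 81.6% of its longest transcript is identical to other genes, so its counts are uncertain. For squalene and lanosterol, 1 of 3 genes, Sqle, was called lower, and 0 without WT replicate 2, without Fmr1-KO replicate 3 or with library totals.

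Between lanosterol and cholesterol, 5 of 10 genes were called lower (all genes, 21.9%) and 1 higher (all genes, 20.7%). The median log2 fold-change was -0.09, and -0.05 without WT replicate 2. Dhcr7, Ebp, Hsd17b7 and Cyp51 were among those lower. Ebp, a sterol isomerase, had a log2 fold-change of -0.28 (SE 0.08, adjusted P 0.0045 by edgeR) and Hsd17b7, a 3-ketosteroid reductase, of -0.21 (SE 0.05, adjusted P 0.00184). Cyp51, lanosterol demethylase, was just past the threshold at -0.10 (adjusted P 0.0495), and its call was lost without WT replicate 2, Fmr1-KO replicate 2 or Fmr1-KO replicate 3. It was also lost with DESeq2 (0.0534), the stricter filter (0.0541), upper-quartile scaling (0.0808) and library totals (adjusted P 0.1599). Msmo1, the methyl sterol oxidase, was at 0.00 (adjusted P 0.939). The gene called higher was Lbr, at 0.40 (SE 0.05, adjusted P 3.75e-07), from 37.0 ± 1.94 to 48.7 ± 1.15 CPM (SD, n = 3 each). Lbr encodes a sterol reductase that is also the lamin B receptor of the nuclear envelope.

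Genes of sterol sensing and SREBP control gave 0 of 11 lower (all genes, 21.9%) and 2 higher (all genes, 20.7%). The median log2 fold-change was 0.01. Srebf2, which encodes SREBP2, had 406.4 ± 8.33 CPM in WT against 411.8 ± 15.9 CPM in Fmr1-KO (SD, n = 3 each), with a log2 fold-change of 0.02 (adjusted P 0.666). Mbtps1, the protease that makes the first cut in SREBP, and Rnf145, a sterol-responsive ubiquitin ligase, were the 2 called higher, each with a log2 fold-change of 0.13 (adjusted P 0.00589 and 0.0156 by edgeR), and were named after their values were seen. Rnf145 lost its call without WT replicate 2 or without Fmr1-KO replicate 3.

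In sterol uptake and endosomal export, 8 of 12 genes were called lower (all genes, 21.9%) and 2 higher (all genes, 20.7%). The median log2 fold-change was -0.14. Mylip, the ubiquitin ligase that degrades lipoprotein receptors, had the largest change of the list, from 12.9 ± 0.58 to 5.90 ± 0.34 CPM (SD, n = 3 each) and a log2 fold-change of -1.12 (SE 0.08, adjusted P 4.24e-10 by edgeR). Lipa, the lysosomal acid lipase that frees cholesterol from its esters, fell by 0.55 on the log2 scale (SE 0.04, adjusted P 2.18e-09), from 60.5 ± 3.47 to 41.3 ± 0.66 CPM (SD, n = 3 each). The most abundant receptors moved in opposite directions. Lrp1, an endocytic receptor for lipoproteins, was lower (-0.17, adjusted P 7.95e-05), and Lrp8, the ApoER2 receptor, was higher (0.10, adjusted P 0.00655).

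In sterol efflux, storage and turnover, 4 of 9 genes were called lower (all genes, 21.9%) and 3 higher (all genes, 20.7%). The median log2 fold-change was -0.03. Abcg1, a sterol exporter, went from 15.3 ± 0.94 to 7.69 ± 1.09 CPM (SD, n = 3 each), a log2 fold-change of -0.99 (SE 0.09, adjusted P 1.02e-08 by edgeR). Abca1, the other main exporter, was higher by 0.14 (SE 0.04, adjusted P 0.00911), a call lost without Fmr1-KO replicate 3. Osbp, which carries sterols between membranes, had -0.01 (adjusted P 0.815). In SREBP-linked fatty acid synthesis, 1 of 11 genes was called lower (all genes, 21.9%) and 2 higher (all genes, 20.7%). The median log2 fold-change was -3.00e-05, and it was above 0 with 2 of the other scalings. Scd2, a stearoyl-CoA desaturase and the most abundant gene of that list, had -0.02 (adjusted P 0.632), and Fads2, a fatty acid desaturase, was higher by 0.13 (adjusted P 0.000789).

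**Figure D4:**
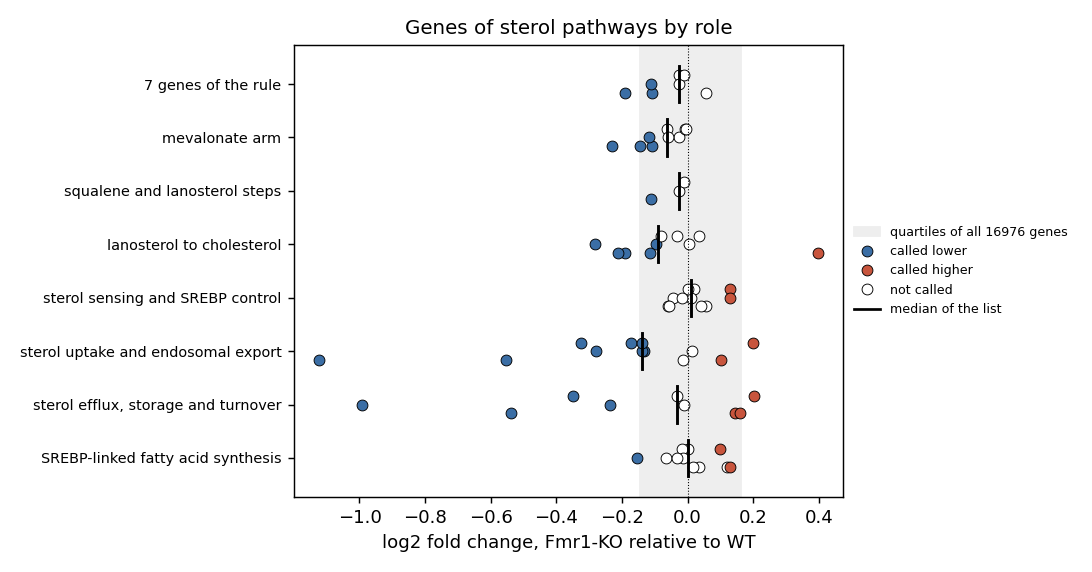
Log2 fold-change of Fmr1-KO relative to WT for the 7 genes and for every tested gene of 7 pathway lists on the vertical axis, 1 point per gene (blue called lower, red called higher, white not called), with a bar at each median and a band between the quartiles of all 16976 genes. The medians run from -0.14 in uptake and endosomal export to 0.01 in sterol sensing, and the points near -1 are Mylip and Abcg1.

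Markers of other cells were read in the same libraries, since glia make much cholesterol. Beside the marker counts below, 21.9% of all genes were called lower and 20.7% higher. The culture is labelled cortical neurons, and astrocyte and oligodendrocyte markers were also abundant in it. Gfap, the astrocyte filament protein, had 2649 ± 67.0 CPM in WT against 2297 ± 158.2 CPM in Fmr1-KO (SD, n = 3 each), beside 1253 CPM in WT for Dcx, the most abundant neuron marker listed, a comparison per read and not per length. Of the oligodendrocyte lineage markers, 10 of 10 were called lower, and their summed level was 2346 to 2551 CPM in WT and 1344 to 1448 CPM in Fmr1-KO. Mbp, a myelin protein, had a log2 fold-change of -0.92 and Mog -1.23. Mog had few reads, with a mean of 1.80 CPM and SE 0.17. Of the astrocyte markers, 5 of 10 were called lower and 3 higher, with sums of 5836 to 5963 CPM in WT and 5206 to 5606 CPM in Fmr1-KO, and S100b had the largest change (-0.94). Microglia markers gave 7 of 8 lower and 0 higher, with sums of 183.1 to 204.4 CPM in WT and 109.0 to 121.5 CPM in Fmr1-KO, among them C1qa (-1.05) and C1qb (-1.13).

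Neuron markers gave 11 of 12 lower (all genes, 21.9%) and 1 higher (all genes, 20.7%), Dcx (0.08). Their sums were 5166 to 5274 CPM in WT and 4222 to 4424 CPM in Fmr1-KO, and Nefl, a neurofilament gene, changed most (-1.90). Proliferating cell markers gave 10 of 10 higher, with sums of 591.7 to 628.6 CPM in WT and 1002 to 1055 CPM in Fmr1-KO. Top2a had a log2 fold-change of 0.86 and Mki67 of 1.09. Neural progenitor markers gave 4 of 8 higher and 0 lower, with sums of 2382 to 2396 CPM in WT and 2692 to 2762 CPM in Fmr1-KO, among them Vim (0.22) and Eomes (2.79). Endothelial and mural markers gave 3 of 6 tested higher, among them Pdgfrb (0.47) and Kdr (1.23), and 1 lower, Rgs5 (-0.91). Their sums were 75.7 to 83.5 CPM in WT and 93.2 to 99.9 CPM in Fmr1-KO. The endothelial marker Cldn5 had too few counts to be tested. These marker sums did not overlap between the genotypes, some lower and some higher in Fmr1-KO. Of all single genes, 26.3% had every Fmr1-KO library below every WT library and 25.4% had every one above. Abundant genes weigh most in a sum. The astrocyte sum was lower while the median log2 fold-change of its genes was -0.03. The members' sum overlapped, and Hmgcs1 held 1248 of its 2235 CPM in WT. The part of cell types in the changes of Hmgcs1, Sqle and Dhcr7 was not tested. In bulk libraries, fewer cells of a type and less RNA per cell cannot be told apart.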

How the data were processed

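The authors deposited raw counts per gene, not normalized. Per their methods and the submitters' processing notes, FastP trimmed the reads, STAR 2.7.6a aligned them to GRCm38.p6, and they were summed over exons by gene name with featureCounts in reverse-stranded mode. No row lacked a gene name (0), and 0 columns of other samples were present.

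Counts were tested with edgeR 4.0.16 in R 4.3.3 (filterByExpr, TMM, glmQLFit, glmQLFTest, 2-sided, genotype as the only term, Benjamini-Hochberg adjustment over 16976 genes, called under 0.05). SE is the log2 fold-change divided by the square root of F. Log2 CPM used a prior count of 2. Alternatives were DESeq2 1.42.0, RLE, upper-quartile or library-total scaling, no filter, a mean of at least 5 CPM, a replicate block, a fold change above 1.2, removal of the 20 most abundant genes, and leaving out each library. With 1 library left out, 2 libraries of a genotype remained. Same-numbered libraries did not deviate together (correlations -0.03, 0.03 and -0.01), so the numbers were not treated as pairing. On simulated counts with 200 of 16976 genes changed by 1 log2 unit, 90.5% were recovered in the right direction, and 0.0361% of the unchanged genes passed. All genes were simulated with a common dispersion, and Hmgcs1, Sqle and Dhcr7 changed by far less than 1 log2 unit. The simulation therefore does not show how reliable their calls are.

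Counting noise was exceeded between libraries of each genotype (chi-square per degree of freedom 2.91 in WT and 3.15 in Fmr1-KO). Exon lengths came from GENCODE M21, which held 98.6% of tested names. Shared stretches were searched with blastn 2.17.0 on the sense strand, at 95% identity or more over at least 100 bases.

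The members and lists were chosen with earlier results of these data known. Named genes were the members, Fmr1, called genes of each pathway list with an absolute log2 fold-change of at least 0.5 and a mean of at least 5 CPM, the 2 most abundant of the rest, the most abundant and the most changed marker of each list, and the 5 genes most like the members. Mvd, Mvk, Fdps, Ebp, Hsd17b7, Lbr, Mbtps1 and Rnf145 fall outside this rule and were chosen after their values were seen. Some genes that this rule selects are not reported here.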

Additional observations from a re-analysis of the deposited data

How the results depend on the processing

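The number of the 7 genes called lower was 3 in the reported analysis. It was 3 with RLE, no filter, the stricter filter, the replicate block and removal of the 20 most abundant genes, 2 with upper-quartile scaling and with DESeq2, 1 with library totals alone and 0 for a fold change above 1.2. Leaving out 1 library gave 1 to 3, the 1 without WT replicate 2 or without Fmr1-KO replicate 3. The number called higher was 0 in every alternative. Dhcr7 lost its call in 1 alternative, a fold change above 1.2. Hmgcs1 lost its call with DESeq2 (adjusted P 0.237), upper-quartile scaling (0.0617) and library totals (0.118), and Sqle with library totals (0.0777). With the replicate block, 3694 genes were called lower and 3488 higher and no member's call changed. Requiring a fold change above 1.2 left 1340 genes lower and 883 higher, from 3725 and 3506. The split was 3517 lower and 3743 higher with upper-quartile scaling and 3212 and 4207 with library totals alone. Fmr1 ranged from -1.03 to -0.94. With library totals alone, log2 fold-changes crossed 0 for Fdft1 (0.000275), Idi1 (0.00243), Lss (0.0156), Osbp (0.0165) and Scd2 (0.00945), as did the median of the members (0.000275) and of the squalene and lanosterol steps (0.000275). Leaving out 1 library gave -0.0598 to 0.00166 for Fdft1, -0.136 to 0.0664 for Idi1, -0.0504 to 0.0329 for Lss, -0.0240 to 0.0550 for Msmo1, -0.0358 to 0.00196 for Scd2 and -0.0141 to 0.0354 for Srebf2. It gave medians of -0.136 to 0.00166 for the members, -0.0598 to 0.00166 for the squalene and lanosterol steps, -0.000581 to 0.0354 for sterol sensing and -0.0271 to 0.0369 for fatty acid synthesis. The last median was also above 0 with upper-quartile scaling (0.0107), library totals (0.0279), the stricter filter (0.000919), the replicate block (0.000825) and without the 20 most abundant genes (0.00863). These values lie near 0 in the reported analysis. With library totals alone, the median of all genes tested rose too, from 0.00601 to 0.0338. That setting drops the TMM factors, which were 0.990 to 0.991 in WT and 1.009 to 1.011 in Fmr1-KO. The cause of the changes on leaving out a library was not tested. With 3 libraries in each genotype, changes of the size seen for Hmgcs1 and Sqle depended on single libraries.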
